A study of Danio rerio with 20 samples.

Results

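The cytosolic ribosomal protein genes of zebrafish liver were followed across 2 β-catenin models of hepatocellular carcinoma (HCC). Members were rows of the count tables whose gene symbol begins with rpl or rps followed by a digit, or is rplp0, rplp1, rplp2 or rpsa, without the rps6k kinases, and with at least 10 counts in at least 4 of the 20 libraries. The rule used no comparison between groups. It found 83 of the 32520 genes, and 83 of 83 passed the minimum. They were 42 proteins of the large subunit, 36 of the small subunit, 3 of the stalk, and 2 that are not subunits of the mature ribosome (rps19bp1, an rps19-binding protein, and rpl7l1, a paralog of rpl7). The 83 genes carry 79 different symbols, since 4 symbols, rps26 and rpl5 among them, each stand for a pair of genes. Reads from near-identical copies can be split unevenly by the counting, so values of these pairs are uncertain. rpl27a, rpl41 and rpsa were not analysed here.

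Liver RNA was sequenced from 20 fish, with 1 library per fish. By the paper the fish of both experiments were male. The CreLox experiment held 4 fish with HCC (604, 605, 623 and 624), 2 fish without HCC (625 and 609) and 4 Cre controls (630, 628, 621 and 622), all at 11 months post fertilization (mpf). CreLox fish carried Tg(fabp10a-CreERT2;fabp10a-flox-beta-catenin) and received 10 µM 4-hydroxytamoxifen (TAM) at 3 to 6 days post fertilization (dpf). The Cre controls carried the Cre driver alone and received 0.1% ethanol, the vehicle, over the same days. By the paper's methods the TAM solution held the same ethanol. TAM and activated β-catenin thus cannot be told apart in this experiment. The HepABC experiment held 5 untreated Tg(fabp10a-pt-beta-catenin) fish with HCC (317E5, 317E6, 317E9, 317E10 and 317E11) and 5 wild-type (WT) siblings without the transgene (317C1, 317C2, 317C4, 317C5 and 317C8). These 10 fish were at 6 mpf. The fabp10a promoter drives both the activated β-catenin and the Cre recombinase in hepatocytes. The study's methods give fewer CreLox fish with HCC than the labels, and all 4 labelled fish were used. Age, treatment, experiment and the removal of duplicate reads differ between the models and cannot be told apart.

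Ribosomal proteins fold around ribosomal RNA to make the large and small subunits that translate every cytosolic mRNA. Their mRNAs are short, abundant and begin with a terminal oligopyrimidine tract, through which mTORC1 and LARP1 set their translation and stability. MYC raises the transcription of these genes in growing cells, and free ribosomal proteins such as rpl5 and rpl11 bind MDM2, the ubiquitin ligase of p53, when subunit assembly fails. In liver they compete for reads with very abundant mRNAs of secreted plasma proteins.

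The family took a larger part of the library in every HCC liver than in any control liver of the same experiment. Its share of all counts was 11.0, 9.29, 10.9 and 8.68% in CreLox fish with HCC 604, 605, 623 and 624, against 6.59, 6.88, 7.29 and 6.73% in Cre controls 630, 628, 621 and 622. In CreLox fish without HCC the share was 8.56% in 625 and 9.80% in 609. Both values lay above the 4 Cre controls, 609 within the range of the CreLox fish with HCC and 625 just under it. In HepABC fish with HCC the share was 13.5, 17.4, 13.6, 16.9 and 12.2% (317E5, 317E6, 317E9, 317E10 and 317E11), against 7.72, 7.15, 6.95, 7.34 and 7.48% in WT controls (317C1, 317C2, 317C4, 317C5 and 317C8). The lowest HepABC liver was thus well above the highest WT liver, and the HepABC livers were the more spread of the 2 groups. The means were 9.96 ± 1.15% in CreLox HCC (SD, n = 4), 9.18 ± 0.878% without HCC (n = 2) and 6.87 ± 0.301% in Cre controls (n = 4). They were 14.7 ± 2.30% in HepABC HCC and 7.33 ± 0.297% in WT controls (n = 5 each). The ratio of means was 1.45 for CreLox HCC over Cre controls, 1.34 for CreLox without HCC over Cre controls, 1.08 for CreLox HCC over CreLox without HCC, and 2.01 for HepABC HCC over WT controls. No test was run on the summed share, and the CreLox comparisons with Cre controls share those controls.

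**Figure D1:**
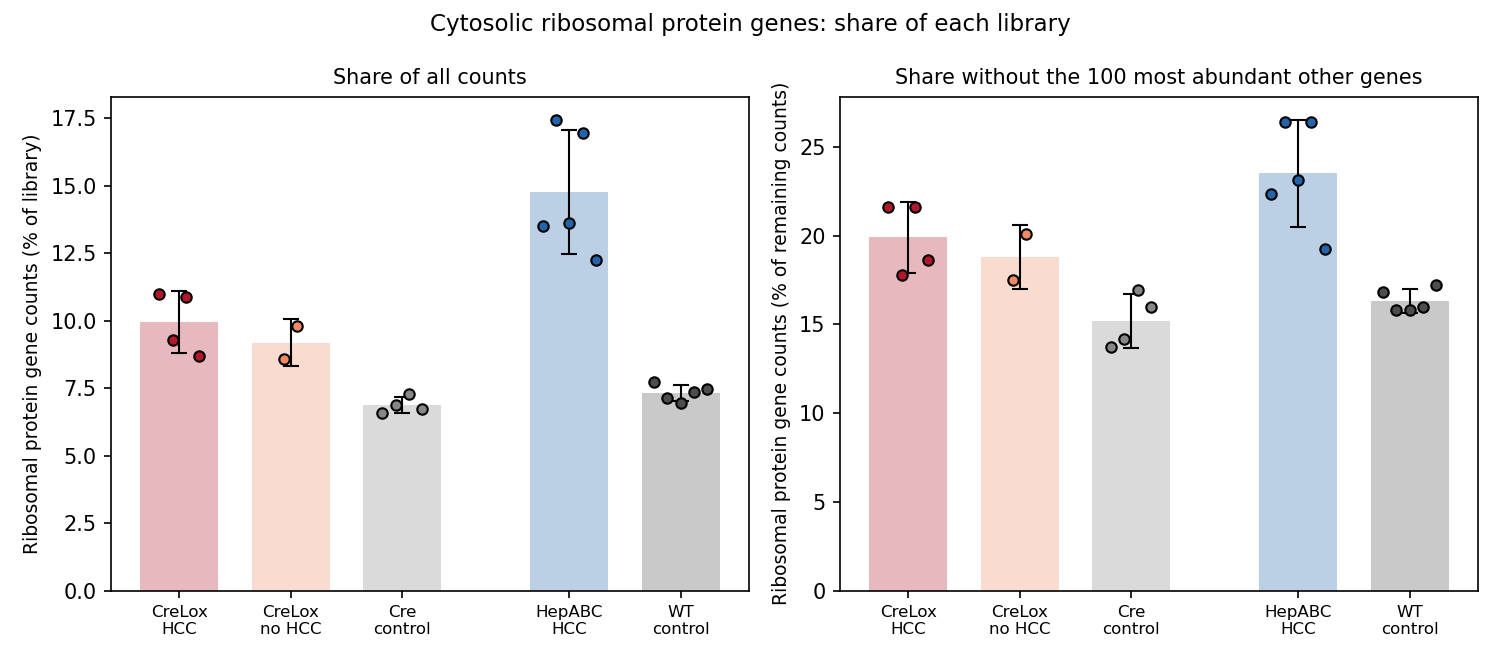
Share of library counts taken by the 83 ribosomal protein genes, in percent, by group, of all counts (left) and of the counts left after removing the 100 most abundant other genes of each library (right). Bars are group means, error bars the SD and points single fish; HepABC HCC averaged 14.7% against 7.33% in WT controls on the left, and 23.5% against 16.3% on the right.

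The gain was spread over the family. The mean share of single members was larger for 80 of 83 members in CreLox HCC than in Cre controls, and for 81 of 83 in HepABC HCC than in WT controls. Of all genes tested, scaled by library size alone, 63.7% had a log2 fold change above 0 in CreLox HCC and 81.1% in HepABC HCC. The 6 members that gained most made up 16.9% of the family's difference in CreLox HCC and 18.5% in HepABC HCC. In CreLox HCC they were led by rps2, a small subunit protein at the mRNA entry channel, with 3.77% of the difference. In HepABC HCC they were led by rplp0, the base of the stalk that recruits elongation factors, with 3.90%, followed by rps20 with 3.62% and rps12 with 3.09%. No member was among the 10 most abundant genes of any library. Between 28 and 48 members stood among the 100 most abundant genes of a HepABC HCC liver, against 5 to 9 in a WT liver.

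The 10 most abundant genes of each library need not be the same genes. They took a smaller part of the counts in HCC livers than in controls of the same experiment. The 10 most abundant genes took 11.4 to 15.5% of the counts in HepABC HCC and 22.8 to 26.1% in WT controls. They took 19.7 to 20.1% in CreLox HCC, 20.70 to 20.91% in CreLox fish without HCC and 20.95 to 24.5% in Cre controls. Among 16 hepatocyte markers, such as fabp10a and the fibrinogen chains, 16 were significantly lower in HepABC HCC, with a summed level of 52168 to 103496 counts per 1000000 counts of the library (CPM), against 185069 to 214847 in WT controls. In CreLox HCC 1 of the 16 was significantly lower. Of all genes tested, 16.2% were significantly lower in HepABC HCC and 1.81% in CreLox HCC. These calls used the TMM factors described below, while the sums are parts of the library total. With library size alone 14 of the 16 were lower in HepABC HCC and 2 in CreLox HCC, beside 5.38% and 1.12% of all genes. The family's share was also taken without each library's own 100 most abundant genes outside the family. This denominator was chosen after the data were seen. The share was then 1.31 times that of Cre controls in CreLox HCC and 1.24 times in CreLox fish without HCC. It was 1.44 times that of WT controls in HepABC HCC. The part of the abundant liver genes in the family's share was not tested beyond these values. In bulk liver, fewer cells of a type and less RNA per cell cannot be told apart.

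The size of the change in single members depended on the scaling. Unless said otherwise, CPM and fold changes of members are scaled by edgeR's TMM factors, which set the bulk of the genes equal between libraries, and significance is an adjusted p under 0.05 in edgeR's quasi-likelihood test, over all genes tested. In HepABC HCC against WT controls all 15864 genes had a median log2 fold change of -0.00 with TMM factors and of 0.87 with library size alone. The median of the 83 members was 0.11 with TMM factors and 1.02 with library size alone. In CreLox HCC against Cre controls the median of all genes was -0.05 with TMM factors and 0.22 with library size alone, while the members' median was 0.24 and 0.54. In CreLox fish without HCC the all-gene medians were -0.05 and 0.10, and the members' medians 0.26 and 0.44. The members' median thus lay about the same distance above all genes in both CreLox comparisons under either scaling, and closer to all genes in HepABC HCC. The TMM factors of HepABC HCC livers were 1.39 to 1.45 apart from 317E9, at 1.09, against 0.70 to 0.81 in WT controls. Cre controls 621 and 622, at 0.77 and 0.78, stood apart from 630 and 628, at 1.04 and 1.07.

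**Figure D2:**
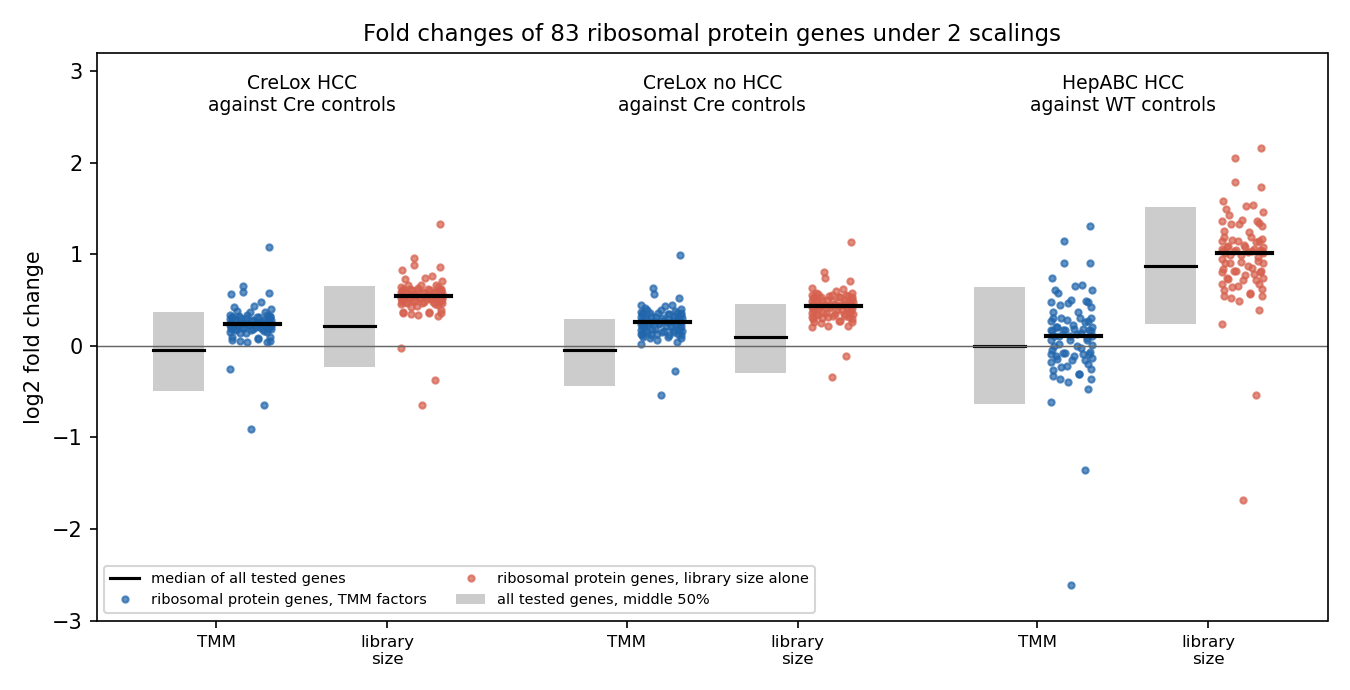
Log2 fold changes of the 83 members (points) in CreLox HCC and CreLox without HCC against Cre controls and in HepABC HCC against WT controls, under TMM factors and under library size alone. Grey bars span the middle 50% of all tested genes and black lines the medians; in HepABC HCC the members' median was 0.11 with TMM factors, near all genes at -0.00, and 1.02 with library size alone, beside 0.87 for all genes.

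In CreLox HCC against Cre controls, most members leaned higher but none was significantly dysregulated with TMM factors. The log2 fold change was above 0 for 80 of 83 members, against 46.9% of all 16837 genes tested. Significance was reached by 0 members in either direction, while 2.39% of all genes were significantly higher and 1.81% significantly lower. At an unadjusted p under 0.05, 6 members were higher and 1 was lower, beside 11% and 12.5% of all genes. DESeq2 called 2 higher and 1 lower, beside 5.68% and 5.76% of all genes, and limma voom called 0, beside 1.76% and 1.6%. With library size alone 38 members were higher, or 45.8% of the family, beside 5.07% of all genes, and 0 were lower, beside 1.12%. The 42 large subunit genes ran from 0.05 to 1.08 in log2 fold change with a median of 0.26, and the 36 small subunit genes from -0.64 to 0.65 with a median of 0.23. The 3 stalk genes lay at 0.17 (rplp0), 0.59 (rplp1) and 0.21 (rplp2).

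The 3 members with the smallest p in CreLox HCC were a paralog of a large subunit protein and the 2 genes that are not subunits. rpl22l1 (ENSDARG00000010244) is the paralog of rpl22, which in mouse holds down its expression. It stood at 324, 192, 282 and 278 CPM in CreLox HCC and at 110.5, 145, 76.5 and 176 CPM in Cre controls. Every HCC liver was above every control, with 605 nearest to the controls and control 622 nearest to the HCC livers. The log2 fold change was 1.08 ± 0.277 (SE), with an adjusted p of 0.0566 by edgeR and 0.00471 by DESeq2. Without control 622 the adjusted p by edgeR was 0.0442. rpl22 (ENSDARG00000070437) itself had a log2 fold change of 0.05 (adjusted p = 0.911). In its single-cell data the paper lists rpl22l1 among genes raised in a cluster mostly of CreLox HCC hepatocytes. That list compares clusters of cells, and no Cre control liver was among them.

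rpl7l1 (ENSDARG00000042864) ran the other way, at 15.5, 16.9, 18.1 and 18.05 CPM in CreLox HCC and 22.5, 41.6, 30.9 and 33.5 CPM in Cre controls. The 4 HCC livers lay close together below all controls, of which 630 was the lowest. The log2 fold change was -0.91 ± 0.239, with an adjusted p of 0.0619 by edgeR, 0.0107 by DESeq2, and 0.0485 by edgeR without control 630. rps19bp1, which also binds the deacetylase SIRT1 in human, stood at 14.9, 14.4, 13.03 and 12.5 CPM in CreLox HCC and 9.53, 9.62, 7.75 and 10.2 CPM in Cre controls. The groups did not overlap, and the log2 fold change was 0.56 ± 0.159 (adjusted p = 0.0746 by edgeR and 0.0119 by DESeq2). With TMM scaling 3 members lay wholly above the controls, rpl22l1, rps20 and rps19bp1, beside 7.52% of all genes. rpl7l1 alone lay wholly below, beside 6.5%. As CPM of the library total, 78 members lay wholly above the controls, beside 12.8% of all genes, and 1 lay below, beside 2.98%.

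CreLox livers without HCC lay near the HCC livers in the family's level, with the wide error that 2 fish leave. The log2 fold change against Cre controls was above 0 for 81 of 83 members, and 0 members were significant in either direction by edgeR, where 0.297% of all genes were higher and 0.0178% lower. At an unadjusted p under 0.05, 3 members were higher and 0 lower, beside 5.27% and 4.9% of all genes. DESeq2 called 0 members, beside 1.25% of genes higher and 0.801% lower, and limma voom 0, beside 0.0832% and 0.0119%. With library size alone 0 members were called, beside 0.267% and 0.0119%. At an unadjusted p under 0.05 on that scale 54 were higher, beside 7.49% of all genes. rpl22l1 stood at 219 CPM in 625 and 288 CPM in 609, within the span of the HCC livers and above every control, with a log2 fold change of 1.00 ± 0.326 (adjusted p = 0.360). rps19bp1 had a log2 fold change of 0.45 (adjusted p = 0.471). rplp1, a stalk protein, had 0.64 (adjusted p = 0.487), with 1103 CPM in 625 and 1773 CPM in 609 against 764, 819, 1272 and 846 CPM in Cre controls. For rplp1 the lower fish without HCC lay inside the range of the controls. With TMM scaling 6 members lay wholly above the controls, among them rpl12, rpl22l1, rps20, rps12 and rps19bp1, beside 9.94% of all genes, and 0 lay below, beside 8.28%. As CPM of the library total, 79 lay wholly above, beside 15.6%, and 0 below, beside 4.71%.

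Between CreLox livers with and without HCC, 40 of 83 members had a log2 fold change above 0 and the members' median was -0.01. edgeR called 0 members, beside 0.0% of genes higher and 0.00594% lower. At an unadjusted p under 0.05, 0 members were higher and 1 was lower, beside 1.32% and 1.73% of all genes. DESeq2 called 0, beside 0.0285% of genes higher and 0.0627% lower, and limma voom 0, beside 0.0% and 0.00594%. The lower member was rpl7l1, with 34.4 CPM in 625 and 18.9 CPM in 609, and a log2 fold change of -0.64 ± 0.285 (adjusted p = 0.9996). All 4 HCC livers lay below both, and fish 609 was near the HCC livers. rpl7l1 was the 1 member wholly below, beside 5.92% of all genes, and 0 lay wholly above, beside 5.37%. As CPM of the library total 3 lay above and 0 below, beside 7.39% and 3.12%. rps27l, a p53 target in human, had a log2 fold change of -0.37 and rpl21, of the large subunit, -0.18, both at an adjusted p of 0.9996.

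In HepABC HCC a small set of members moved away from the rest in both directions. With TMM factors 8 members were significantly higher and 2 significantly lower than in WT controls, or 9.64% and 2.41% of the family, beside 17.4% and 16.2% of all genes tested. The log2 fold change was above 0 for 53 of 83 members with TMM factors, beside 49.9% of all genes, and for 81 of 83 with library size alone, beside 81.1%. Both shares of significant members are below those of all genes. Without WT control 317C2 or 317C5 the count higher was 4, and without 317C4, 317C8 or 317E10 it was 5. Without 317E9 the count lower was 5. With library size alone, 76 were higher, or 91.6% of the family, beside 50.1% of all genes, and 1 was lower, beside 5.38%. DESeq2 called 12 higher and 4 lower, beside 18.1% and 16.1% of all genes, limma voom 8 and 4, beside 16.2% and 16.7%, and upper-quartile factors 8 and 4, beside 17.3% and 16.4%. The middle 50% of members lay between -0.11 and 0.30 with TMM factors.

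rps12 (ENSDARG00000036875), a small subunit protein that in Drosophila is needed for competition between cells of unequal ribosomal gene dose, had the largest increase. It stood at 1538, 1766, 3383, 3054 and 1391 CPM in HepABC HCC and at 919, 804, 963, 866 and 934 CPM in WT controls. The groups did not overlap, and 317E9 and 317E10 were well above the other HepABC livers. Its log2 fold change was 1.31 ± 0.272 (adjusted p = 0.00409), and 1.157 without 317E9. rps20 (ENSDARG00000036044), of the head of the small subunit, stood at 1998, 2773, 3012, 4308 and 1859 CPM in HepABC HCC and 1481, 1442, 1593, 1396 and 1532 CPM in WT controls. Here 317E10 was the highest and the groups again did not overlap, with a log2 fold change of 0.91 ± 0.238 (adjusted p = 0.0135).

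rps21, another protein of the small subunit, rose as well. It had 898, 939, 1928, 1345 and 903 CPM in HepABC HCC and 816, 675, 753, 672 and 689 CPM in WT controls, with a log2 fold change of 0.74 ± 0.242 (adjusted p = 0.0355). The groups did not overlap, but 317E9 was far above the rest and the log2 fold change without it was 0.55. The adjusted p of rps21 was between 0.0502 and 0.0785 when any of the 5 WT controls or 317E10 was left out.

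Of the large subunit, rpl35a and rpl37 rose. rpl35a (ENSDARG00000088030), which is mutated in Diamond-Blackfan anaemia in human, stood at 1340.0, 1593, 3237, 2053 and 1384 CPM in HepABC HCC and 1092, 964, 1074, 968 and 1038 CPM in WT controls. All HepABC livers were above all WT livers, with 317E9 the highest, and the log2 fold change was 0.90 ± 0.255 (adjusted p = 0.0186), or 0.68 without 317E9. rpl37 had a log2 fold change of 0.50 ± 0.163 (adjusted p = 0.0351). rpl7l1, which was lower in CreLox HCC without reaching significance, rose here, at 47.6, 94.8, 49.6, 49.4 and 102 CPM in HepABC HCC and 22.2, 25.6, 48.5, 29.8 and 29.7 CPM in WT controls. The highest WT liver, 317C4, lay within the HepABC range, and 317E6 and 317E11 were well above the other HepABC livers. Its log2 fold change was 1.14 ± 0.304 (adjusted p = 0.0143).

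rpl22l1, higher in every CreLox liver than in the Cre controls, was among the 2 members that fell in HepABC HCC. It stood at 51.0, 41.5, 115, 77.9 and 32.7 CPM in HepABC HCC and 128, 164, 139, 136 and 249 CPM in WT controls, with no overlap and 317E9 nearest to the WT livers. Its log2 fold change was -1.36 ± 0.351 (adjusted p = 0.0123). With library size alone it was -0.53 (adjusted p = 0.150), so the call depended on the scaling while the direction did not. rpl22 stood at 639, 742, 803, 761 and 649 CPM in HepABC HCC and 749.5, 668, 768, 708 and 697 CPM in WT controls, overlapping, with a log2 fold change of 0.00 (adjusted p = 0.997). The ratio within the pair does not depend on the scaling. rpl22l1 made up 7.40, 5.30, 12.6, 9.28 and 4.79% of the counts of the pair in HepABC HCC and 14.6, 19.7, 15.4, 16.1 and 26.3% in WT controls. It made up 35.0, 29.9, 32.3 and 31.1% in CreLox HCC and 28.5 and 30.8% in CreLox fish without HCC, against 21.2, 23.9, 10.0 and 21.9% in Cre controls. In the pair of genes, rpl22l1 thus took a smaller part in HepABC HCC and a larger part in CreLox livers, with no overlap with the controls of either experiment.

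**Figure D3:**
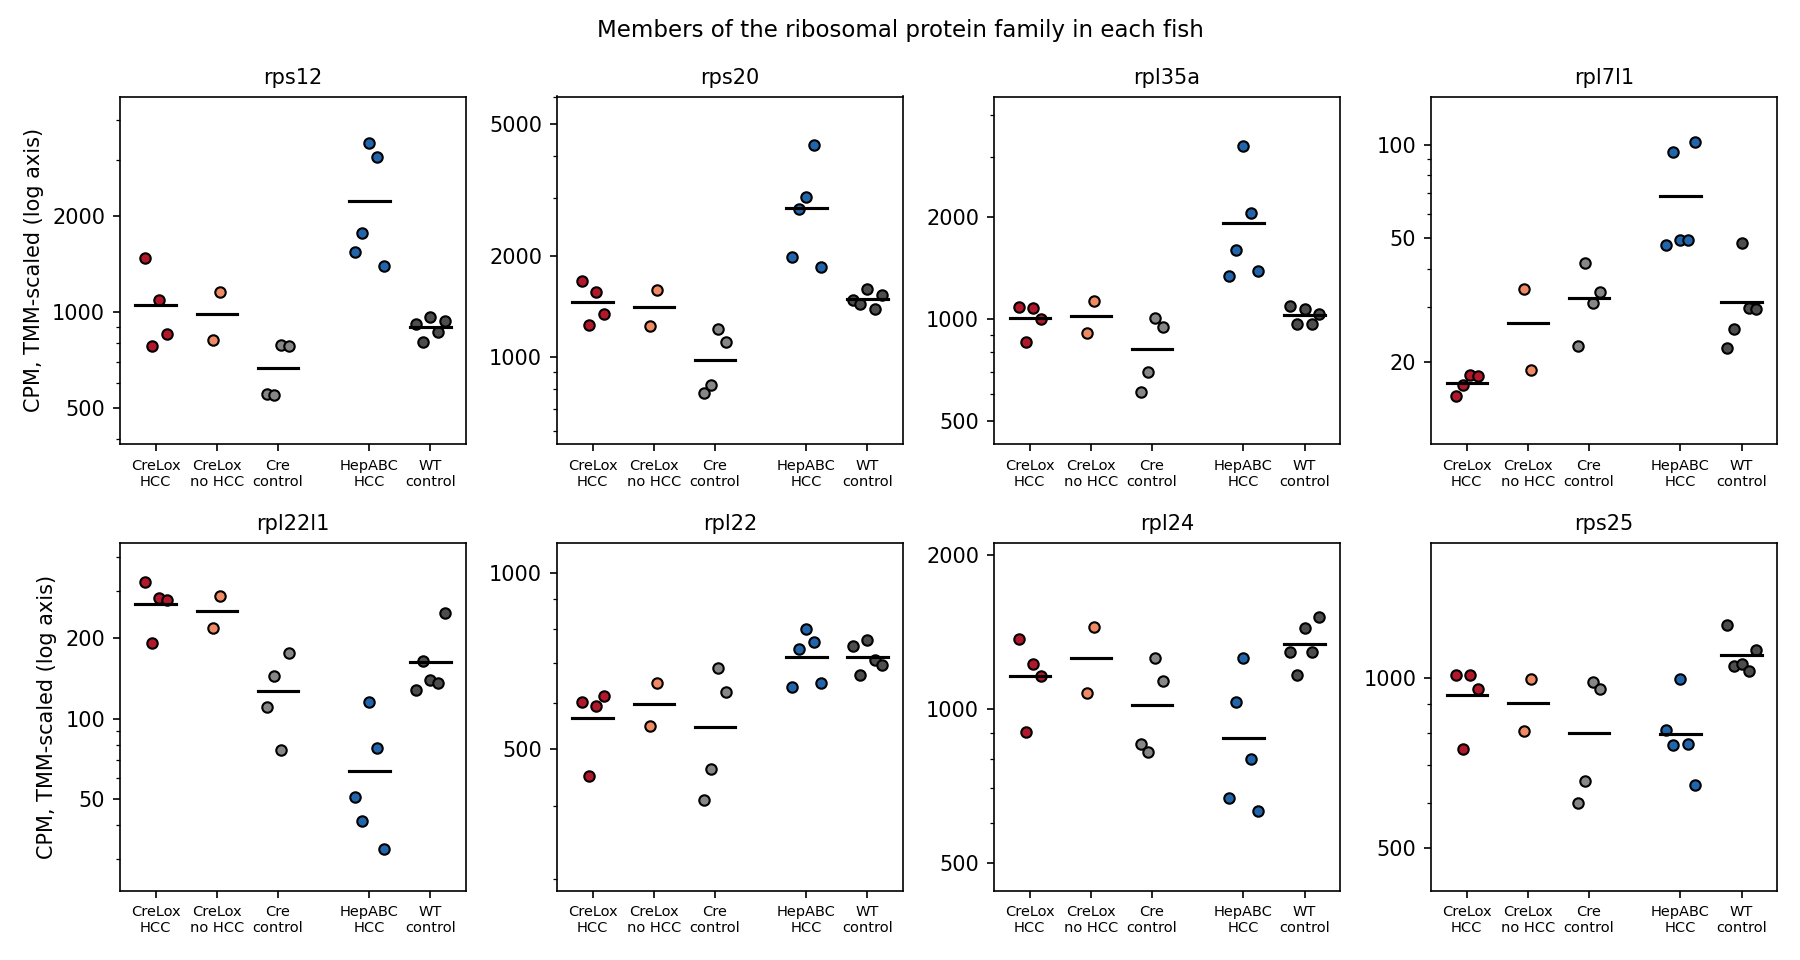
TMM-scaled CPM, on log axes, of rps12, rps20, rpl35a, rpl7l1, rpl22l1, rpl22, rpl24 and rps25 in each fish of the 5 groups; points are fish and lines group means. rpl22l1 lies between 192 and 324 CPM in CreLox HCC, above its Cre controls, and between 32.7 and 115 CPM in HepABC HCC, below its WT controls. TMM factors were computed within each experiment, so levels can be compared within an experiment only.

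Most members with a known special role did not reach significance in either HCC comparison. Among the stalk proteins in HepABC HCC, rplp0 had a log2 fold change of 0.21 (adjusted p = 0.397), rplp1 0.43 (adjusted p = 0.0969) and rplp2 -0.26 (adjusted p = 0.240). Of the proteins that bind MDM2, rpl11 had 0.13 (adjusted p = 0.676), and the rpl5 copies had -0.07 (ENSDARG00000015862) and 0.17 (ENSDARG00000020197). rps6, which is phosphorylated downstream of mTORC1, had -0.31 (adjusted p = 0.353). It stood at 1093, 1148, 2242, 1400.1 and 943 CPM in HepABC HCC and 1659, 1649.6, 1700.4, 1562 and 1881 CPM in WT controls. Of the HepABC livers, 4 lay below every WT liver and 317E9 lay above them all. Without 317E9 the log2 fold change of rps6 was -0.52 (adjusted p = 0.0386), while with library size alone in all fish it was 0.53.

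The remaining named members of the large subunit in HepABC HCC were rpl3, at the peptidyl transferase centre, with a log2 fold change of -0.23 (adjusted p = 0.347), rpl10, which joins late in assembly, with 0.20 (adjusted p = 0.484), rpl13a, of the human interferon-gamma-activated inhibitor complex, with -0.33 (adjusted p = 0.205), and rpl39, at the exit tunnel, with 0.45 (adjusted p = 0.104). Of the small subunit, rps19, the gene most often mutated in Diamond-Blackfan anaemia, had 0.58 (adjusted p = 0.0573), and rps3, which also acts in DNA repair, had 0.67 (adjusted p = 0.0756). rps3 stood at 1742, 1902, 4124, 2489 and 1514 CPM in HepABC HCC and 1563, 1391, 1451, 1408 and 1586 CPM in WT controls, with 317E9 far above the rest. rps14, haploinsufficient in a human myelodysplastic syndrome, had 0.31 (adjusted p = 0.173), the ubiquitin fusion rps27a -0.15 (adjusted p = 0.515), rps27l 0.14 (adjusted p = 0.746), rps27.1 0.10 (adjusted p = 0.716) and rps27.2 0.30 (adjusted p = 0.343). rps19bp1 had 0.61 (adjusted p = 0.0861). In CreLox HCC these special-role members, apart from rpl22l1, rpl7l1, rps19bp1 and rplp1, lay between -0.25 (rps27l) and 0.37 (rpl11) in log2 fold change.

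By fish, 7 members lay wholly above the WT controls in HepABC HCC with TMM scaling, among them rpl23a, rps21, rpl37, rps20, rps12 and rpl35a, beside 12.1% of all genes. Wholly below were 3 members, rpl22l1 and rps25 among them, beside 11.5% of all genes. As CPM of the library total, 68 members lay wholly above, beside 35.0% of all genes, and 1 lay wholly below, beside 3.03%.

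The make-up of the family itself was then compared, with the summed counts of the 83 members in place of the library size, so that a value is a member's change relative to the family and does not depend on the rest of the library. In HepABC HCC 5 members took a significantly larger part of the family, beside 12.9% of all genes on that scale. A significantly smaller part was taken by 4, beside 17.1%. As shares of the 83 members, both counts are below those of all genes. Among the larger were rps12 (log2 1.14, adjusted p = 0.00296), rpl7l1 (1.06, adjusted p = 0.0389), rps20 (0.75, adjusted p = 0.0143) and rpl35a (0.74, adjusted p = 0.0205). Among the smaller were rpl22l1 (log2 -1.53, adjusted p = 0.00359), rpl24 (-0.77, adjusted p = 0.00919) and rps25 (-0.59, adjusted p = 0.0192). The number that took a larger part was 3 without 317E11, 317C1, 317C2, 317C5 or 317C8, and the number that took a smaller part was 7 without 317E6.

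rpl24, a large subunit protein whose partial loss slows MYC-driven lymphoma in mouse, stood at 671, 1034, 1258, 798 and 631 CPM in HepABC HCC and 1293, 1167, 1443, 1291 and 1512 CPM in WT controls. Only 317E9 lay within the WT range. Its log2 fold change against all genes was -0.61 (adjusted p = 0.0537) with TMM factors and 0.24 with library size alone, so its lower part of the family is the value that the library's scaling leaves alone. rps25, needed for initiation at viral internal ribosome entry sites, stood at 808, 761, 996, 764 and 646 CPM in HepABC HCC and 1239.8, 1051, 1060.3, 1028 and 1121 CPM in WT controls, with no overlap, a log2 fold change of -0.47 (adjusted p = 0.0549) with TMM factors, and 0.39 (adjusted p = 0.0408) with library size alone. In CreLox HCC and in CreLox fish without HCC, 0 members changed their part of the family by edgeR, beside 1.32% of genes higher and 2.86% lower, and 0.172% and 0.0297%. At an unadjusted p under 0.05 there were 4 members with a larger part and 2 with a smaller part in CreLox HCC, and 0 in CreLox fish without HCC. The share of all genes at that threshold was not computed on this scale, so nothing is read from these counts. The summed counts of large subunit genes over those of small subunit genes were at most 1.27 in HepABC HCC (median 1.26) and at least 1.30 in WT controls (median 1.31). They were 1.32 to 1.38 in CreLox HCC and 1.36 to 1.38 in Cre controls, which overlapped.

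The change in HepABC HCC was set against the change in CreLox HCC in 1 fit of all 20 libraries. Of 18645 genes tested, 6.01% changed significantly more upward in HepABC and 5.33% more downward. Of the members 1 was above and 2 were below, or 1.20% and 2.41% of the family, both under the shares of all genes. rpl7l1 was the member above, with a difference of 2.07 ± 0.402 on the log2 scale (adjusted p = 0.00463). rpl22l1 was among those below, at -2.43 ± 0.477 (adjusted p = 0.00486). Without Cre control 630 or 628 or CreLox fish 624 the count below was 1. With the summed member counts as library size, rpl7l1 differed by 2.23 (adjusted p = 0.0134), beside 4.56% of all genes, while rpl22l1 differed by -2.31 (adjusted p = 0.00592) and rpl24 by -0.72 (adjusted p = 0.0408), beside 3.23%. On that scale the count below was 1 without any CreLox fish, Cre controls 630, 628 or 622, 317E10, 317C4, 317C5 or 317C8, and 4 without 317E9. With library size alone in place of it 19 members were above, beside 16.3% of all genes, and 1 below, beside 2.35%, and with DESeq2 1 and 2, beside 8.86% and 7.61%. The median difference of the 83 members was -0.10 with TMM factors and 0.46 with library size alone, where all genes stood at 0.04 and 0.63.

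**Figure D4:**
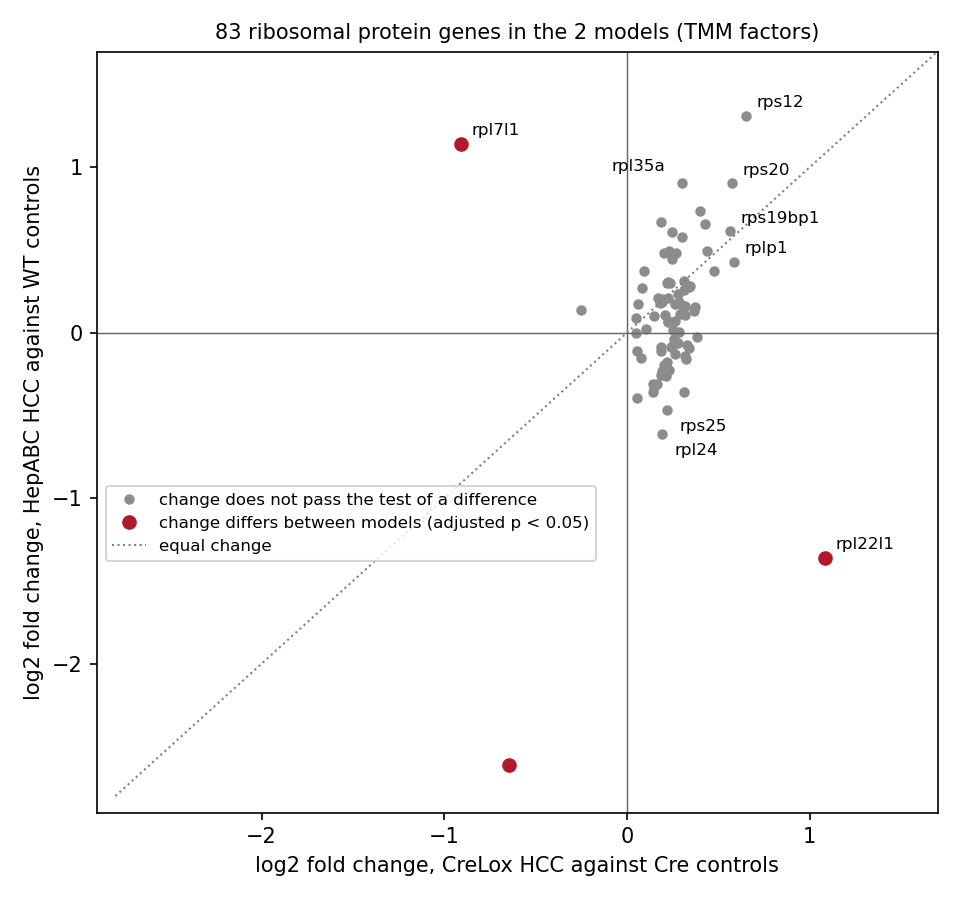
Log2 fold change of each of the 83 members in CreLox HCC against Cre controls (x axis) and in HepABC HCC against WT controls (y axis), with TMM factors. Red points are the 3 members whose changes differed between the models, among them rpl22l1 at 1.08 and -1.36 and rpl7l1 at -0.91 and 1.14; the dotted line marks equal change.

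The genes that build and run the ribosome were set beside the family. In HepABC HCC, where 17.4% of all genes were significantly higher and 16.2% lower, 24 of 39 ribosome biogenesis genes were significantly higher and 1 lower, with a median log2 fold change of 0.98, led by nop2, an rRNA methyltransferase (1.95), dkc1, the pseudouridine synthase (1.94), and nip7, a pre-rRNA processing factor (1.80). Of 75 mitochondrial ribosomal protein genes 31 were significantly higher and 0 lower, with a median of 0.64, as in mrpl9 (1.63) and mrpl40 (1.41). With library size alone, where 50.1% of all genes were higher and 5.38% lower, 36 of the 39 biogenesis genes and 71 of the 75 mitochondrial genes were higher and 0 of either were lower. Both medians are above that of the cytosolic family, 0.11, on the same TMM scale. In CreLox HCC 0 of the 39 biogenesis genes were significant (median -0.54), and 1 of the 75 mitochondrial genes was higher (mrpl4, 0.85) with a median of 0.15. Beside them 2.39% of all genes were higher and 1.81% lower. With library size alone 0 of the 39 and 2 of the 75 were higher, beside 5.07% of all genes. In the difference between models 23 of the 39 biogenesis genes were significantly above and 1 below, with a median of 1.56. Of the 75 mitochondrial genes 3 were above and 0 below. Beside them 6.01% of all genes were above and 5.33% below. An upward difference such as that of rpl7l1 was thus frequent among biogenesis genes.

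Among transcripts related to the family outside the symbol rule, rack1, a small subunit scaffold that binds protein kinase C, was significantly higher in HepABC HCC (log2 0.85, adjusted p = 0.00872), and fau was not. The counts of the lists that follow in HepABC HCC stand beside the same 17.4% of all genes higher and 16.2% lower, and those with library size alone beside 50.1% and 5.38%. Of 12 genes with an elongation factor name 3 were higher, among them eef1e1 (1.37) and eef1g (0.97). Lower was 1, eef1da (-0.98, or -0.16 with library size alone). With library size alone 9 of the 12 were higher and 0 lower. Of 32 initiation factors 3 were higher, as eif6, which keeps the subunits apart (1.15), and 7 lower, as eif3h (ENSDARG00000036116, -2.54) and pabpc1b (-2.50), while with library size alone 17 were higher and 2 lower. Of 9 other transcripts of the terminal oligopyrimidine type 2 were higher, btf3l4 (0.71) and hnrnpa1a (0.66), and 2 lower, tpt1 (-0.92) and ipo5 (-0.89), which were not significant with library size alone (-0.08 and -0.03), where 6 of the 9 were higher and 0 lower. Of 16 genes of mTORC1 and LARP1 0 were higher and 5 lower, among them its inhibitors tsc1 (ENSDARG00000026048, -1.76) and deptor (-1.40), while with library size alone 8 were higher and 1 lower. The other copy of tsc1 (ENSDARG00000057918) had 0.70 (adjusted p = 0.163). In the myc family 1 of 7 was higher, mycn (1.81), or 4 of 7 with library size alone. The paper, which used DESeq2, names myca among Wnt targets significantly raised in its bulk data of male HCC. In the edgeR fits with TMM factors myca was not significant in either HCC comparison. The DESeq2 result for myca is not reported here, so this is not a like comparison with the paper's call. Of 4 genes of the p53 axis 1 was lower, mdm4 (-0.64, or 0.22 with library size alone, where 2 of the 4 were higher). In CreLox HCC these lists held 2 significant genes, the lower initiation factors eif4a1a (-2.02) and eif3j (-1.33), beside 2.39% of all genes higher and 1.81% lower. With library size alone 3 genes of the elongation factor list and 1 other terminal oligopyrimidine transcript were higher. So were 2 of the 3 transcripts outside the symbol rule, beside 5.07% of all genes. On that scale 1 initiation factor was lower, beside 1.12%. In CreLox fish without HCC the lists held 0 with TMM factors, beside 0.297% and 0.0178%. The summed level of 11 proliferation markers moved with HepABC HCC, at 87.0 to 413 CPM against 8.56 to 29.3 CPM in WT controls, with 11 of 11 significantly higher.

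Markers of other cells were counted in the same fits, with sums as CPM of the library total. The biliary list includes krt8 and anxa4. The paper lists both among genes raised in a cluster mostly of CreLox HCC hepatocytes, so the sum is not specific to biliary cells. The paper's list for that cluster also holds rpl22l1 and tpt1. Of all genes, 17.4% were significantly higher and 16.2% lower in HepABC HCC, or 50.1% and 5.38% with library size alone. In HepABC HCC the summed biliary markers stood at 10280 to 17920 CPM, against 1400 to 3679 CPM in WT controls. Of 7 tested 3 were significantly higher, or 5 with library size alone. Erythrocyte markers were lower (5 of 5 tested, 41.3 to 78.8 CPM against 234 to 531 CPM), as were exocrine pancreas markers (11 of 11 tested, 23.5 to 43.3 CPM against 14.7 to 6299 CPM, with WT control 317C1 the highest). Endothelial markers were lower in 6 of 6 and stellate markers in 3 of 8, or in 1 each with library size alone. In the lymphocyte list 1 of 9 genes was higher and 3 were lower, or 1 and 2 with library size alone. That list was chosen to include cd3eap, and its specificity for lymphocytes was not checked. Of 12 macrophage and neutrophil markers 0 were significant, while 2 were higher with library size alone. In CreLox HCC 2 of 8 biliary markers were higher, with sums of 2914 to 6620 CPM against 1534 to 2290 CPM in Cre controls. Of 13 macrophage and neutrophil markers 1 was lower, while 2.39% of all genes were higher and 1.81% lower. With library size alone 4 biliary markers and 1 endothelial marker were higher, beside 5.07% of all genes. On that scale 0 macrophage and neutrophil markers were lower, beside 1.12%. In CreLox fish without HCC the summed biliary markers stood at 3027 and 3810 CPM, above the same Cre controls. Of the 8, 1 was significantly higher, beside 0.297% of all genes. The part of all these markers in the ribosomal protein values was not tested.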

How the data were processed

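Strand-specific mRNA libraries of 20 zebrafish livers were used. The deposited values are unnormalized counts per Ensembl gene, which the authors made with cutadapt, STAR 2.6.1b (GRCz11) and featureCounts 1.6.3. Optical duplicates were removed with BBMap clumpify in the CreLox experiment only. The submitters' processing notes also name DESeq2 1.22.2. Totals were 20903187 to 37994885 counts per library, and no libraries of a group agreed within sampling noise.

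Here counts were analysed in R 4.3.3 with edgeR 4.0.16 (filterByExpr, TMM factors, quasi-likelihood test), with Benjamini-Hochberg adjustment over all genes tested and a threshold of 0.05. Each experiment was fitted on its own, and all 20 libraries together for the difference between models. Each member was also tested with the summed member counts as library size. CPM are counts per 1000000 of the TMM-scaled library size, and of the library total for sums of markers. A share is the members' counts over all counts of a library. Gene symbols came from a table of 29201 identifiers, and coordinates and sequences were not used. Alternatives were DESeq2 1.42.0, limma 3.58.1 voom, other scalings, count filters, compared groups alone and each fish left out in turn. Upper-quartile factors and the removal of the 100 most abundant other genes were added after the data were seen. Only the edgeR fit with TMM factors was tested on simulated counts, for every comparison but CreLox HCC against CreLox without HCC. The alternatives, shares and lists were not.

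The members, lists and tests were chosen with earlier results of these data known. Named were up to 5 significant members with the largest change in each direction (the 3 with the smallest p where none was significant), members with a known special role (20 of 27 symbols matched), up to 5 members in each direction that changed within the family, and the genes of a list with the largest significant changes. Others were named after their values were seen: rps2, rpl37, the rpl5 copies and the members whose groups did not overlap. Some members and list genes that are counted are not reported here by name. Labels do not say more of the fish of a group than that they are separate fish, so p-values measure the spread between them.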

Additional observations from a re-analysis of the deposited data

Results flagged for a closer look

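In 56 groups of values from the 4 or 5 fish of a group, 3 held a fish far from the rest, where chance gives about 1 in 20. Among Cre controls, fish 621 stood apart with a large to small subunit count ratio of 1.38 and with 1272 CPM of rplp1. Among WT controls, 317C4 stood apart with 48.5 CPM of rpl7l1. Both CPM values are TMM-scaled, and the gaps were smaller as CPM of the library total. On that scale rplp1 stood at 982 in 621 and at 662 to 876 in the other Cre controls. There rpl7l1 stood at 34.1 in 317C4 and at 16.1 to 24.0 in the other WT controls.

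For rpl22l1 and rpl7l1 the change differed between the models in the test of the difference, as HepABC change minus CreLox change on the log2 scale. It was -2.43 for rpl22l1 (edgeR adjusted p = 0.00486) and 2.07 for rpl7l1 (adjusted p = 0.00463). Experiment, age, treatment and duplicate removal differ between the models and cannot be told apart from these differences.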

How the results depend on the processing

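In CreLox HCC 0 members were significant, beside 2.39% of all genes higher and 1.81% lower. DESeq2 called 2 higher and 1 lower, beside 5.68% and 5.76%, and library size alone 38 higher, beside 5.07%. In HepABC HCC 8 were higher and 2 lower, beside 17.4% and 16.2% of all genes. Library size alone gave 76 and 1, beside 50.1% and 5.38%. DESeq2, voom and upper-quartile factors each gave 4 lower, beside 16.1%, 16.7% and 16.4%. For the difference between models 1 was higher and 2 lower, beside 6.01% and 5.33%. Library size alone gave 19 and 1 there, beside 16.3% and 2.35%. Within the family, TMM factors computed on the members gave 1 lower in place of 2 for that difference. The ratio of shares was 1.31 in CreLox HCC, 1.24 in CreLox without HCC and 1.44 in HepABC HCC without the 100 most abundant other genes, and 1.75 in HepABC HCC without the 10 most abundant genes. Of the HepABC log2 fold changes 81 of 83 were positive with library size alone and 53 with TMM factors, beside 81.1% and 49.9% of all genes. Among the named members those of rpl13a (0.56), rpl3 (0.65), rplp2 (0.62), rps27a (0.72) and rps6 (0.53) turned positive with library size alone. The cause of these shifts was not tested beyond the scaling itself.

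With each fish left out in turn, CreLox HCC gave 0 to 1 members higher and 0 to 1 lower (without Cre controls 622 and 630). HepABC HCC gave 4 to 12 higher and 2 to 5 lower, and within the family 3 to 5 and 4 to 7. The difference between models gave 1 higher and 1 to 3 lower. Within the family it gave 1 higher and 1 to 4 lower, with 4 without 317E9 and 1 without most other single fish. Shares of all genes with a fish left out are not given here, so these counts show only how the calls vary with single fish. Ratios of shares ran from 1.399 to 1.511 (CreLox HCC), 1.25 to 1.43 (CreLox without HCC), 1.02 to 1.163 (CreLox HCC over CreLox without HCC) and 1.92 to 2.099 (HepABC HCC). No paired analysis was possible because the groups hold different fish and the labels give no numbers that pair them.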
